A study of Mus musculus with 4 samples.

Results

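STAT transcription factors were examined in CD4 cells of sanroque and wild type mice, as 12 Affymetrix MOE430A probe sets annotated to 1 of the genes Stat2, Stat3, Stat4, Stat5a, Stat5b and Stat6 alone. These 6 genes stand among 12393 genes with a probe set of their own, and the 12 probe sets among 22690 on the array; all 12 passed the filter on dim signals that left 13579 for testing. The 2 sanroque arrays (san/san) hold RNA of CD4 cells from homozygotes of a line made by treating male C57BL/6 mice with the mutagen ENU, in which antinuclear autoantibodies appeared through a recessive variant. The 2 wild type arrays (+/+) hold RNA of CD4 cells without that variant. The labels give no treatment and no age at which cells were taken. Nor do they say that the arrays of a genotype come from different animals, so the p-values cover the variation among these arrays alone, and that may be technical. Arrays number 1 of both genotypes were hybridised and scanned on 1 day and arrays number 2 on another. The headers describe the number 1 arrays as sorted T cells. In the header of wild type array 2 the sample is named with the letters CBA, on which the labels are silent, so a difference in strain background cannot be told apart from the mutation.

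STAT proteins wait in the cytoplasm until a cytokine receptor and its JAK kinases phosphorylate them on a tyrosine; they then pair through their SH2 domains, enter the nucleus and bind DNA. In CD4 T cells each member serves a group of cytokines. STAT2 acts with IRF9 downstream of type I interferon, STAT3 downstream of IL-6 and IL-21, and STAT4 downstream of IL-12 in Th1 cells. STAT5A and STAT5B act downstream of IL-2 and IL-7, and STAT6 downstream of IL-4 in Th2 cells. The arrays measure their mRNA and say nothing of phosphorylation.

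Promoters of the member whose signal differed most between the genotypes, Stat4, and of Stat2, whose protein carries the interferon signal, are shown from RefSeq (GRCm38.p6), from 250 bases before to 50 bases after an annotated start. Capitals mark matches to the interferon response element GAAANNGAAA or to TTCNNNNGAA, the spacing that STAT6 prefers. Stat4 has 2 starts on the plus strand of chromosome 1, at chr1:51986898-51987197 with no match and at chr1:52007990-52008289 with 1 match beginning 97 bases upstream. The Stat2 promoter, on the plus strand at chr10:128270248-128270547, has an interferon element beginning 222 bases upstream, read on the other strand, and the STAT6-type spacing beginning 210 bases upstream; the 2 do not overlap.
Stat4 first start: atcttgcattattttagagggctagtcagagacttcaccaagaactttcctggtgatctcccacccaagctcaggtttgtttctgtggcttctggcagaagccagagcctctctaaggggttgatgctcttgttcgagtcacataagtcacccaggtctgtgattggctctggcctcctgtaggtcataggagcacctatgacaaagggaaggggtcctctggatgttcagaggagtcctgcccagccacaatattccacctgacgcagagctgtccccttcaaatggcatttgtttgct
Stat4 second start: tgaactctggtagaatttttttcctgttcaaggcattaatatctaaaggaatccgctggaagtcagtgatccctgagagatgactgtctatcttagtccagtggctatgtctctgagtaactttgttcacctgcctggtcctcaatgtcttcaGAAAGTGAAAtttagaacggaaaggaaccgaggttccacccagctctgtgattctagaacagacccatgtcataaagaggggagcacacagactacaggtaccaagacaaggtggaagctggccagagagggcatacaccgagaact
Stat2: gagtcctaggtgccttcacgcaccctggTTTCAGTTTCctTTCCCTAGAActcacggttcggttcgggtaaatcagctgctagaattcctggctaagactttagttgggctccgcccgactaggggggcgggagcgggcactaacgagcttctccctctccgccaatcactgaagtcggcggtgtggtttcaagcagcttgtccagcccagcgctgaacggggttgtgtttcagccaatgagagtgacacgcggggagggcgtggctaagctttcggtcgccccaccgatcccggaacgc

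All 6 members were found in the promoter table, with 9 starts. The interferon element, searched on both strands, lay in 2 of these 9 and in 3.44% of 32851 promoters of the same length. TTCNNNNGAA, which reads the same on both strands, lay in 1 of the 9 and in 6.95% of all promoters. The gamma-activated site TTCNNNGAA, the usual STAT element, lay in none of the 9 and in 8.3% of all. Of 26 promoter windows of interferon-stimulated genes from the list used further on, 9 held the interferon element (34.6%). A match is a description of these letters and no measured site. Stat5b, Stat5a and Stat3 are neighbours on chromosome 11, and Stat6 and Stat2 both lie on chromosome 10.

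Sanroque was set against wild type to ask which STAT transcripts differ between their CD4 cells. Signals were higher in sanroque for 10 of the 12 probe sets and lower for the 2 of Stat6. Their median log2 fold change was 0.30, against 0.02 over all probe sets tested, of which 52.1% had a positive change. The number above 0 was 9 of 12 with median centring or without sanroque array 2, and 7 of 12 without wild type array 2. None of the 12 passed limma at an adjusted p of 0.05, against 1.06% of all probe sets tested. At an unadjusted p under 0.05 there were 5 of 12, against 9.89% of all. With the hybridisation day as a block, limma called 5 of 12 higher, against 3.59% of all tested: 2 of Stat3 and 1 each of Stat4, Stat5a and Stat2. In the same 5 both sanroque arrays lay above both wild type arrays, as in 21.0% of all probe sets; 1 probe set of Stat6 lay below on both, as in 17.7% of all. Fewer cells of a type and less RNA per cell cannot be told apart in such bulk RNA.

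**Figure D1:**
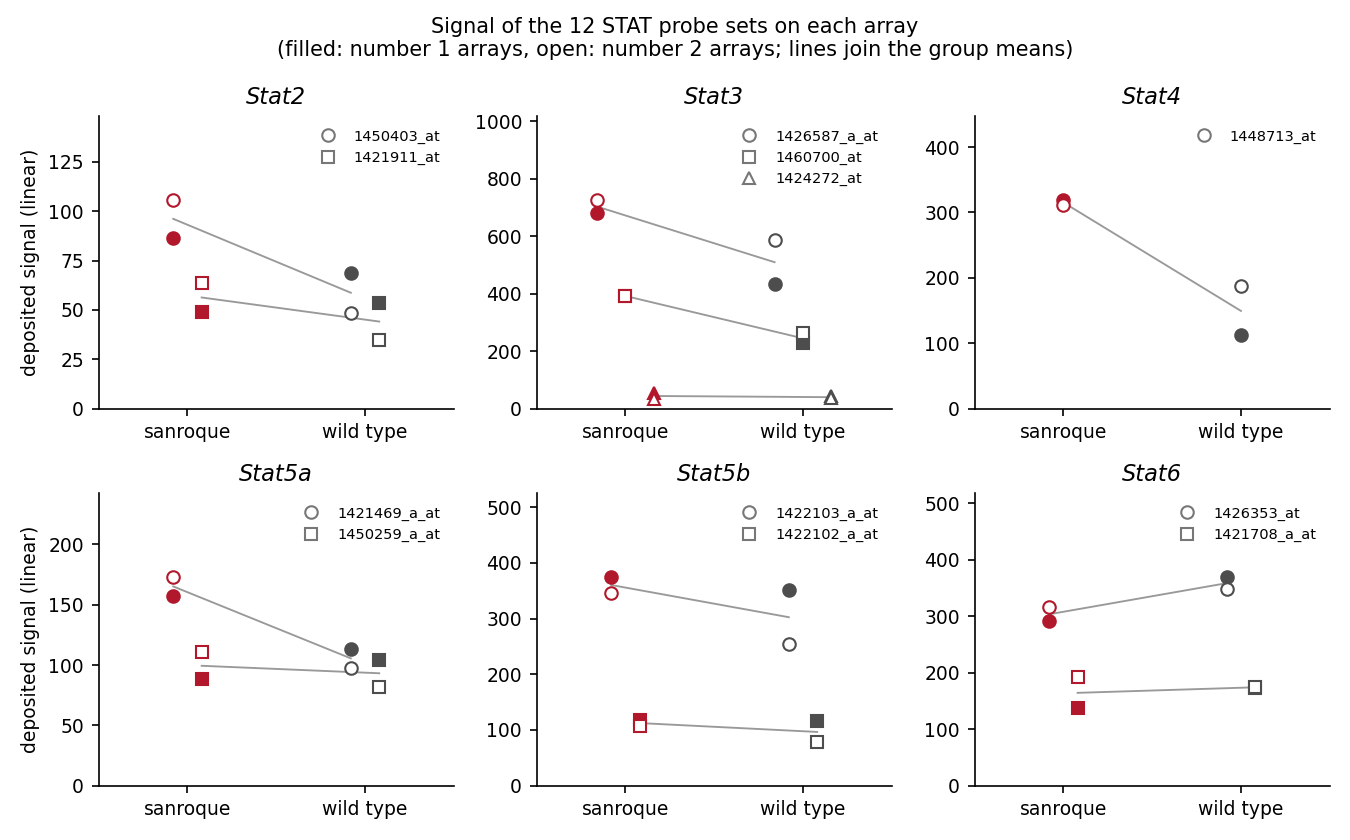
Deposited signal (linear scale, axis from 0) of each STAT probe set on each array, 1 panel per gene, with sanroque in red on the left and wild type in grey on the right. Marker shapes tell probe sets of 1 gene apart, filled markers are number 1 arrays, open markers number 2 arrays, and lines join group means. The sanroque arrays stood above the wild type arrays for Stat4, for 2 Stat3 probe sets, and for 1 probe set each of Stat5a and Stat2.

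Stat4, the factor that IL-12 activates in Th1 cells, had the largest difference of the 12. Its single probe set, 1448713_at, read 319.3 and 311.1 on the sanroque arrays, against 111.9 and 186.8 on the wild type arrays. The groups did not overlap, and the sanroque arrays lay close together while the wild type arrays lay apart. The means were 315.2 ± 5.8 in sanroque and 149.35 ± 52.96 in wild type (SD, n = 2 each), a ratio of 2.11. On the log2 scale the change was 1.09 (95% interval 0.58 to 1.60), higher than 98.9% of the probe sets tested. It lay just outside the threshold (limma adjusted p = 0.0584, rank 164 of 13579 by p) and passed with the day as a block (adjusted p = 5.46e-05). The difference was 1.46 on day 1 and 0.72 on day 2, the day on which the wild type array was the brighter of its genotype. Without wild type array 2 the change was 1.45, the highest with 1 array left out. Leaving out wild type array 1 gave the lowest, 0.74. With the filter at the 60th percentile Stat4 passed limma (adjusted p = 0.0485). Limma did not call it with quantile normalization (adjusted p = 0.109), median centring (0.172), or a pseudocount of 1 (0.0608) or 24 (0.053). Nor did it pass without the filter (adjusted p = 0.201) or without the variance trend (0.304).

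Stat3, the factor that IL-6 and IL-21 activate in follicular helper and Th17 cells, has 3 probe sets. The brightest, 1426587_a_at, read 679.9 and 726.9 on the sanroque arrays, against 433.9 and 585.4 on the wild type arrays. Both sanroque values lay above both wild type values, with the wild type arrays again apart. Its log2 fold change was 0.48 (95% interval 0.06 to 0.90; limma adjusted p = 0.428), and it passed with the day as a block (adjusted p = 0.045). The second, 1460700_at, read 391.4 and 392.7 on the sanroque arrays, against 227.6 and 261.5 on the wild type arrays, with little spread within either genotype. Its log2 fold change was 0.67 (95% interval 0.29 to 1.06; limma adjusted p = 0.132). The days gave 0.77 and 0.58, and it passed with the block (adjusted p = 0.00433). The third, 1424272_at, was the dimmest of the 3, at 53.2 and 34.4 on the sanroque arrays, against 43.1 and 36.2 on the wild type arrays. There the groups overlapped, the log2 fold change was 0.10 (95% interval -0.58 to 0.79), and the days had opposite signs, at 0.27 and -0.06.

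Stat5a and Stat5b encode close paralogues that IL-2 and IL-7 activate; whether their probes tell the 2 mRNAs apart was not tested. For Stat5a, 1421469_a_at read 157.3 and 173.1 on the sanroque arrays, against 113.3 and 97.8 on the wild type arrays. These groups did not overlap, with a log2 fold change of 0.62 (95% interval 0.19 to 1.05; limma adjusted p = 0.246), and the probe set passed with the block (adjusted p = 0.025). The other Stat5a probe set, 1450259_a_at, read 88.2 and 110.6 on the sanroque arrays, against 104.3 and 82.1 on the wild type arrays. It overlapped between genotypes, with a log2 fold change of 0.09 (95% interval -0.40 to 0.58), and gave -0.23 on day 1 and 0.40 on day 2. For Stat5b, 1422103_a_at read 375.0 and 345.9 on the sanroque arrays, against 351.0 and 254.2 on the wild type arrays. The second Stat5b probe set, 1422102_a_at, read 117.5 and 107.4 on the sanroque arrays, against 115.4 and 77.6 on the wild type arrays. In both, 1 wild type array was low and the other lay between the sanroque values, so the groups overlapped. The Stat5b log2 fold changes were 0.26 (95% interval -0.17 to 0.70) and 0.23 (95% interval -0.27 to 0.74), and neither passed limma with the block (adjusted p = 0.364 and 0.551).

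Stat2, which joins IRF9 to form the type I interferon activated complex, had 2 probe sets. Their mean signals lay at percentiles 65.5 and 56.6 of all probe sets. The brighter, 1450403_at, read 86.5 and 105.8 on the sanroque arrays, against 68.8 and 48.6 on the wild type arrays. The groups did not overlap, with a log2 fold change of 0.67 (95% interval 0.13 to 1.21; limma adjusted p = 0.362). It passed with the block by a narrow margin (adjusted p = 0.0474), and the days differed in size, at 0.31 and 1.03. The other, 1421911_at, read 48.8 and 63.8 on the sanroque arrays, against 53.5 and 34.7 on the wild type arrays, and these overlapped. Its log2 fold change was 0.33 (95% interval -0.32 to 0.98), with -0.12 on day 1 and 0.78 on day 2.

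Stat6, the factor that IL-4 activates in Th2 cells, was the member with fold changes below 0 in both probe sets. The brighter, 1426353_at, read 290.5 and 316.1 on the sanroque arrays, against 369.4 and 347.3 on the wild type arrays. The groups did not overlap, but the log2 fold change of -0.24 (95% interval -0.62 to 0.14) did not pass limma, also with the block (adjusted p = 0.744 and 0.424). The other, 1421708_a_at, read 136.6 and 191.9 on the sanroque arrays, against 173.7 and 174.4 on the wild type arrays, so the sanroque arrays fell on either side of wild type. It had -0.10 (95% interval -0.56 to 0.36), with -0.33 on day 1 and 0.13 on day 2.

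**Figure D2:**
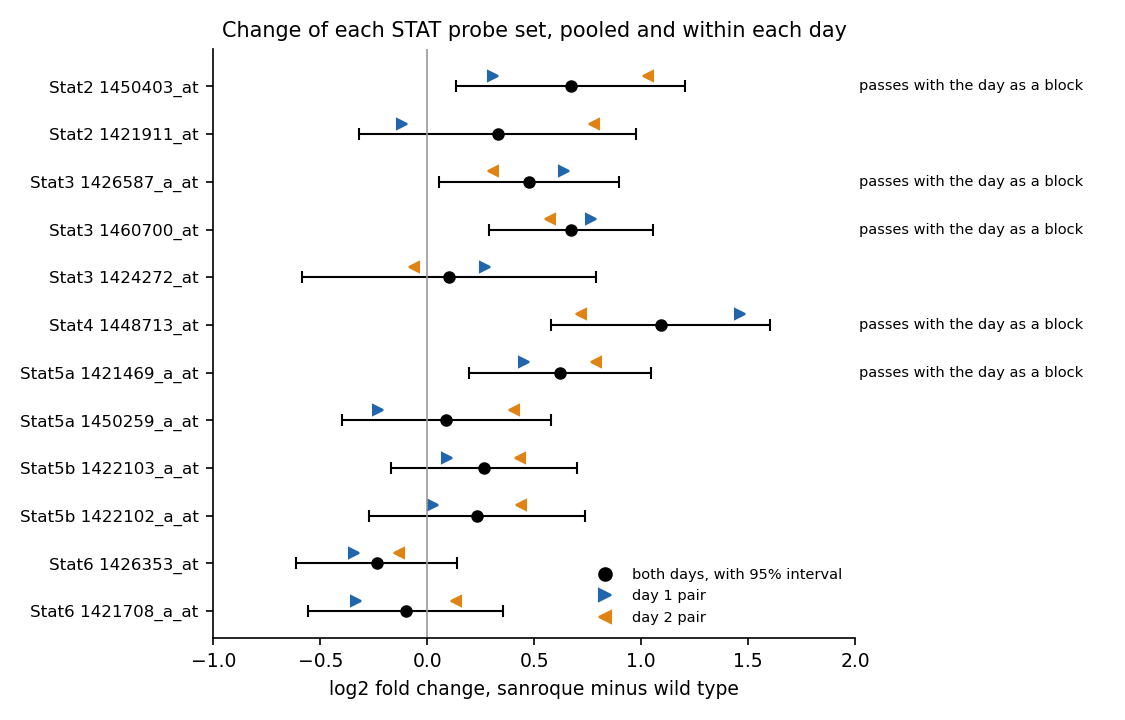
Log2 fold change (sanroque minus wild type, log2 of signal plus 6) of each STAT probe set, with the limma 95% interval as bars and the within-day differences as triangles. The 5 probe sets marked as passing with the day as a block lie above 0 on both days. Stat4 leads on day 1 at 1.46. On day 2 Stat2 1450403_at (1.03), Stat5a 1421469_a_at (0.79) and Stat2 1421911_at (0.78) lie above Stat4 (0.72).

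Probe sets of 1 gene were compared by the difference between their changes, fitted for all 4564 such pairs with limma. Of these pairs 0.153% passed, and none of the 6 STAT pairs did (limma adjusted p = 0.984 to 0.999, with 0 of 6 at an unadjusted p under 0.05, and adjusted p = 0.499 to 0.982 with the block). The widest gap was in Stat5a, where 1450259_a_at minus 1421469_a_at was -0.53 (95% interval -1.19 to 0.12). For Stat3, the dimmest, 1424272_at, minus the brightest was -0.37 (95% interval -1.18 to 0.44). For Stat2 the dimmer minus the brighter was -0.34 (95% interval -1.06 to 0.38). These intervals include 0 and also include a loss of the whole change seen in the first probe set. The 2 Stat5b probe sets differed by -0.03 (95% interval -0.64 to 0.58), and those of Stat6 by 0.14 (95% interval -0.49 to 0.76). Both Stat2, both Stat5a and both Stat5b probe sets are annotated to a single target record per gene.

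**Figure D3:**
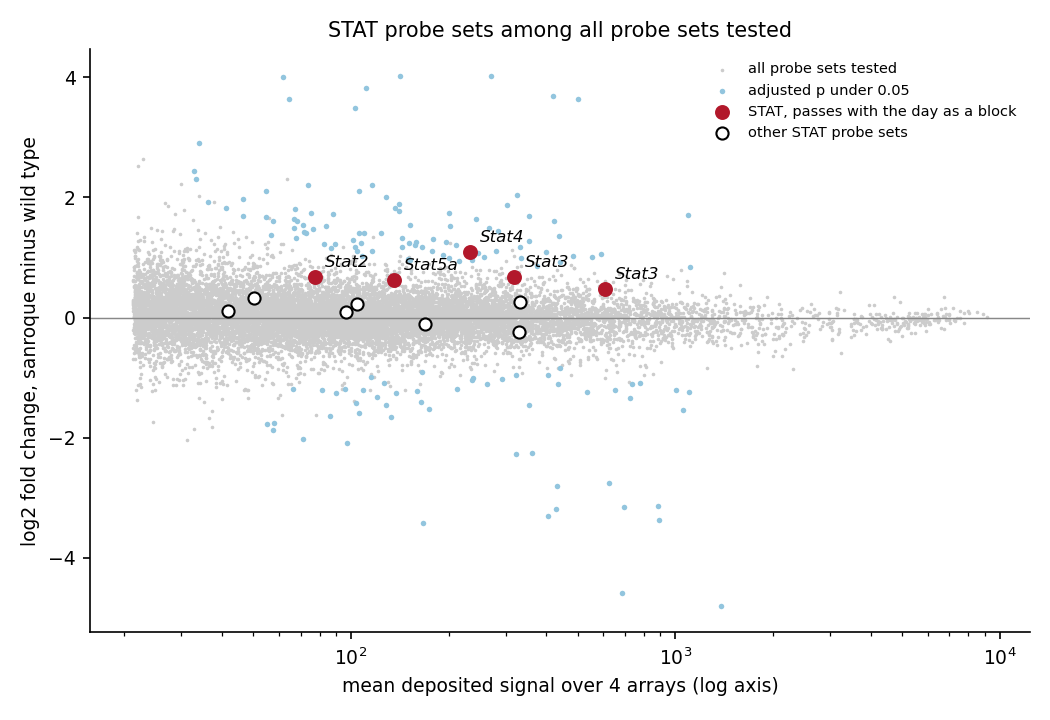
Log2 fold change (sanroque minus wild type) against the mean signal over the 4 arrays (log axis) for all 13579 probe sets tested in grey, those past the limma test in blue, and the STAT probe sets as large markers. Stat4 lies at the upper edge of the grey cloud, and the STAT probe sets that did not pass with the block, as open circles, lie within it.

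By likeness of their centred log2 profile over the 4 arrays, Stat4 was nearest to a probe set of Ascl2 (Euclidean distance 0.07, log2 fold change 1.13), a transcription factor of follicular helper T cells, and to Cd83 (0.15, log2 fold change 1.02), a surface protein of activated lymphocytes. Neither passed limma (adjusted p = 0.481 and 0.057). For the brightest probe set of Stat3 these were Gimap7 (0.05) and Sypl (0.06), for Stat5a Pde7a (0.05) and Gmfb (0.05), and for Stat2 Pde2a (0.07) and Mov10 (0.08). Stat5b was nearest to Opa1 (0.01) and Zfp239 (0.02), and Stat6 to Snrnp48 (0.01) and Htra2 (0.01). With 4 arrays such nearness describes the samples and is common among small changes: 127 probe sets lay within 0.1 of Stat6 and 1 within 0.1 of Stat4.

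Around the STAT proteins, 10 lists named 165 genes, of which 123 were measured by their brightest probe set. In all, 5 rose, among them Il21, which passed the filter only through its sanroque signals, and 2 fell. The median log2 fold change was 0.29, against 0.03 over 7860 genes. Limma called 0.776% of those genes higher and 0.331% lower. With the day as a block 23 of the 123 were higher and 7 lower, against 3.92% and 2.12% of all genes.

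Among the 4 JAK kinases, which phosphorylate the receptors and the STATs, Jak3 rose and the others did not pass. Jak3, the kinase bound to the common gamma chain of the IL-2, IL-7 and IL-21 receptors, read 251.6 and 285.0 on the sanroque arrays, against 141.3 and 122.7 on the wild type arrays. The groups were well apart on both days, with a log2 fold change of 0.99 (standard error 0.19, limma adjusted p = 0.0307). Jak2, which serves the IL-12 and interferon gamma receptors, had 0.52 (adjusted p = 0.402, 0.0505 with the block), Jak1 0.07 and Tyk2 -0.08. The 2 other Jak1 probe sets had -0.34 and 0.47 and the other of Jak2 had 0.24, and none of them passed limma. The Jak3 call ended on leaving out array 2 of sanroque (adjusted p = 0.149) or of wild type (0.0726), on median centring (0.179), without the filter (0.0872) or without the variance trend (0.209).

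Of 18 inhibitors of cytokine signalling 1 rose, Socs3, which binds gp130 and JAKs and is itself induced by STAT3, and 17 did not pass. Socs3 read 562.6 and 701.6 on the sanroque arrays, against 234.8 and 247.3 on the wild type arrays, a ratio of 2.62. Its 3 probe sets all passed limma, with log2 fold changes of 1.36 (adjusted p = 0.00441), 1.17 (adjusted p = 0.0154) and 1.21 (adjusted p = 0.0176). The brightest passed in every setting tried except without the variance trend (adjusted p = 0.101). Cish, a target of STAT5, had 0.29 (adjusted p = 0.732) and Socs1 -0.18 (adjusted p = 0.932). The phosphatase gene Ptpn6 had -0.75 (adjusted p = 0.236), with 264.9 and 448.0 on the sanroque arrays, against 582.8 and 585.9 on the wild type arrays, and it passed with the block (0.00245) and without sanroque array 2 (0.0381). The other Ptpn6 probe set had -0.06 and overlapped between genotypes. The list's median was 0.06, with 10 of 18 above 0, against 54.2% of all genes.

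None of 18 measured cytokine receptor chains passed limma, with a median of 0.24. At an unadjusted p under 0.05 there were 2 of 18, against 9.89% of all probe sets tested. The IL-2 receptor chains Il2rb (0.94, limma adjusted p = 0.114) and Il2ra (0.85, adjusted p = 0.227), both upstream of STAT5, passed with the block (0.00136 and 0.02). The second, dimmer Il2ra probe set had 0.07 (adjusted p = 0.979) and did not pass with the block (0.937). Il2rb read 160.9 and 211.7 on the sanroque arrays, against 113.7 and 76.4 on the wild type arrays, and passed without wild type array 1 (adjusted p = 0.00281). Il6st, the gp130 chain upstream of STAT3, had 0.41, Il4ra, upstream of STAT6, 0.36, and Il21r 0.29. Il7r had -0.28, Ifnar1 -0.18 and Ifnar2 0.002. Other probe sets of these genes differed, at 0.04 and 0.17 for Il6st and 0.38 for Ifnar2, and none of them passed limma. Il12rb2, the signalling chain upstream of STAT4, and Il2rg were not measured. Of 19 cytokine genes 4 were measured. Il21 rose by 1.82 (limma adjusted p = 0.0307) and Ifng had -0.94 (adjusted p = 0.38). Il21 read 78.9 and 56.8 on the sanroque arrays, against 16.1 and 13.4 on the wild type arrays. Its wild type signals lay under the filter of 21.3, so it was tested only through its sanroque signals. The Il21 call ended when either sanroque array was left out (adjusted p = 0.259 and 0.0649), without the filter (0.168) or without the variance trend (0.0507). None of 11 STAT partners and coactivators passed limma (median 0.14, 0 at an unadjusted p under 0.05, 0 adjusted with the block), among them Irf9 at 0.34 (adjusted p = 0.567) and Crebbp at 0.35 (adjusted p = 0.626).

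Genes that interferon induces through STAT2 and IRF9 were the list with the highest median, at 0.52, and 24 of 25 measured had a positive change, against 54.2% of all genes; the median was 0.53 on day 1 and 0.59 on day 2. Only Parp14 rose in the limma test, and 9 were called higher with the block, against 3.92% of all genes. Parp14, a mono-ADP-ribosyltransferase, read 328.4 and 301.4 on the sanroque arrays, against 149.4 and 167.7 on the wild type arrays, a log2 fold change of 0.96 (limma adjusted p = 0.0299). Oas3 had 1.25 (adjusted p = 0.209, 0.000875 with the block) and Oasl2 0.97 (adjusted p = 0.191, 0.00684 with the block); both encode proteins of the oligoadenylate synthetase family. In 21 of the 25, by their brightest probe sets, both sanroque arrays lay above both wild type arrays. Over all probe sets tested the share was 21.0%, and the share by brightest probe set was not counted. Among the 21, Mx1, at 18.2 and 19.9 on the wild type arrays, passed the filter of 21.3 only through its sanroque signals. The Parp14 call ended when either sanroque array was left out (adjusted p = 0.125 and 0.0731), on median centring (0.227), under quantile normalization (0.0505), without the filter (0.0812) or without the trend (0.209).

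Of 18 measured STAT3-responsive genes 2 rose, Socs3 and Il21, the latter past the filter only through its sanroque signals, and 2 fell. Those that fell, Fos (-4.80) and Junb (-2.76), encode AP-1 subunits that many signals induce within minutes. The list's median was 0.47. With the block 6 were higher and 3 lower, against 3.92% and 2.12% of all genes. Bcl6, the factor of follicular helper cells, had 0.71 (limma adjusted p = 0.423) and Pim1 -0.06. The dimmer Pim1 probe set had -0.72 (adjusted p = 0.337) and was called lower with the block (0.02). Of 11 measured STAT4-responsive genes 1 rose, the chemokine receptor gene Cxcr3 (1.07, adjusted p = 0.0231). The Cxcr3 call ended on leaving out sanroque array 2 (adjusted p = 0.116), on median centring (0.142), without the filter (0.0767) or without the variance trend (0.201). Ifng, the main Th1 cytokine gene, had a change below 0 and did not pass, at 22.5 and 19.9 on the sanroque arrays, against 37.9 and 56.2 on the wild type arrays. The median of that list was 0.39, with 0.22 on day 1 and -0.06 on day 2.

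None of 19 STAT5-responsive genes passed limma (median 0.20). Of the 19, 6 had an unadjusted p under 0.05, against 9.89% of all probe sets tested. With the block 3 were higher, Pim2, Il2ra and Tnfrsf9, and 2 lower, Myc and Id2, against 3.92% and 2.12% of all genes. Tnfrsf9, an activation receptor, had 0.75 (limma adjusted p = 0.213, 0.00678 with the block). None of 9 measured STAT6-responsive genes passed limma (median 0.29, 0 at an unadjusted p under 0.05), and 0 passed with the block, where 3 had an unadjusted p under 0.05. The share of all genes at that level with the block was not counted, so nothing is read from these 3. Gata3, the Th2 factor, had -0.41 (adjusted p = 0.63), Ccr4 0.87 (adjusted p = 0.619) from dim signals, and Il24 -0.59 (adjusted p = 0.763). Il4, Il5 and Il13 were not measured.

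**Figure D4:**
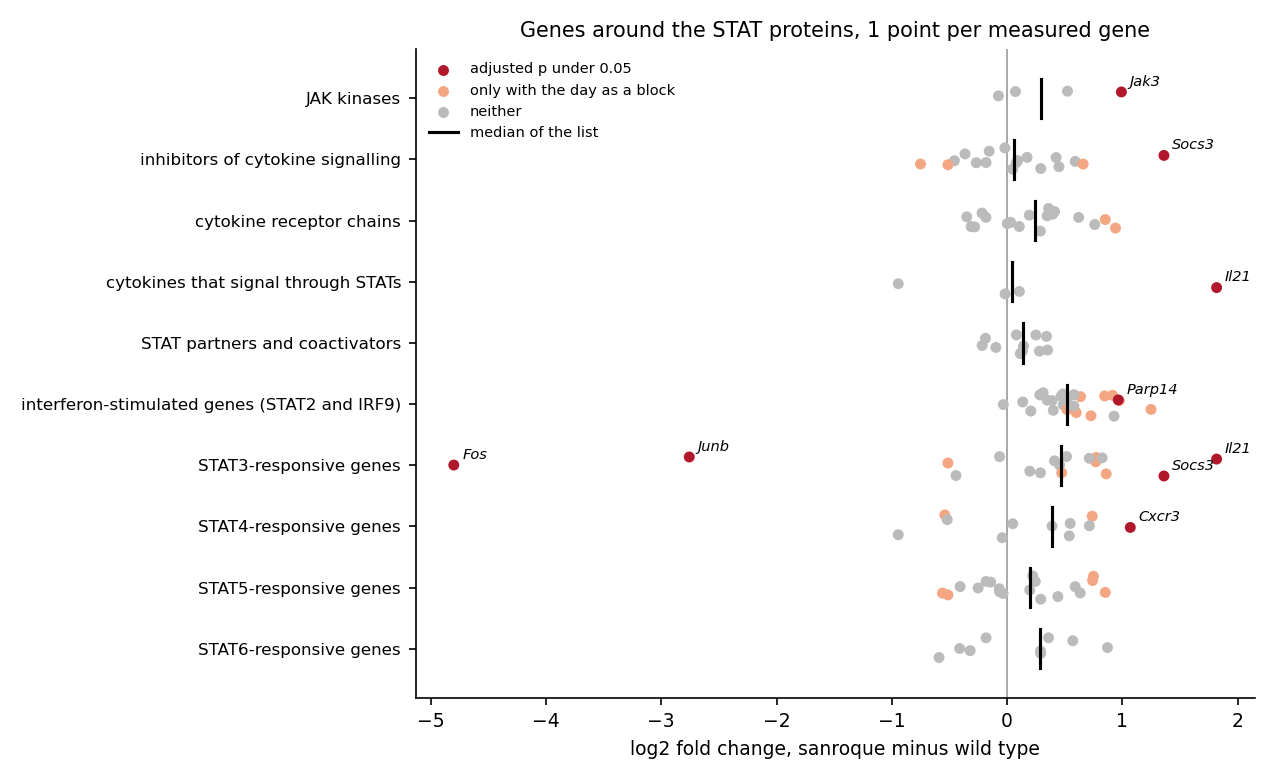
Log2 fold change (sanroque minus wild type) of each measured gene in 10 lists around the STAT proteins, 1 point per gene, red where the gene passed limma, orange where it passed only with the day as a block, grey otherwise, with black bars at list medians. The medians run from 0.05 for cytokines to 0.52 for interferon-stimulated genes, and Fos and Junb stand far to the left.

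The label of CD4 cells was checked against markers. Cd4 read 585.9 and 570.2 on the sanroque arrays, against 533.3 and 613.5 on the wild type arrays. None of 9 measured T cell markers passed limma, with or without the block (2 at an unadjusted p under 0.05 in each). At that level without the block stood 9.89% of all probe sets tested. The share of all genes at that level with the block was not counted. Markers of myeloid cells and neutrophils moved with the genotype: 4 of 12 measured rose (Ngp, Lyz2, S100a8 and S100a9), against 0.776% of all genes. With the block 7 were higher, against 3.92% of all genes. Among the 7, Camp, at 4.5 and 17.2 on the wild type arrays, passed the filter only through its sanroque signals. The 12 myeloid and neutrophil markers summed to 2805.2 to 2814.6 in sanroque, against 1287.2 to 1367.4 in wild type. Those cells also express STAT genes, Socs3 and interferon-stimulated genes, and the part of these markers in the STAT differences was not tested. Elane read 1.3 to 3.0 in sanroque, against 1.5 to 3.4 in wild type, near the low end of the table, and Itgam 13.6 to 18.8 against 8.9 to 13.0; both lay below the filter. By their brightest probe sets, the 8 measured B cell markers summed to 3211.8 to 3833 in sanroque, against 3629.3 to 4419.7 in wild type, none passed limma (1 at an unadjusted p under 0.05), and Pax5 lay below the filter. With the block Cr2 was lower (-0.73, adjusted p = 0.0127). Ighm, the immunoglobulin mu heavy chain gene, differed among its 8 measured probe sets: the brightest had -0.25 and did not pass, while 4 rose by 1.29 to 4.02, and 5 were higher with the block. The one that differed most read 239.6 and 305.4 on the sanroque arrays, against 13.8 and 8.6 on the wild type arrays (limma adjusted p = 1.9e-05). Its wild type signals lay under the filter of 21.3, so it was tested only through its sanroque signals. The same held for another of the 4, at 4.4 and 10.4 on the wild type arrays. It also held for the Ighm probe set called higher only with the block, at 1.8 and 2.2 on the wild type arrays. The part of B lineage RNA in the STAT differences was not tested. No measured marker of CD8 T or NK cells (0 of 7 at an unadjusted p under 0.05), dendritic cells (0 of 1), or red cells and platelets (2 of 3) passed limma, although Alas2 and Slc4a1 of the last were higher with the block. No marker probe set was listed at 0 on any array.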

How the data were processed

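Per the file headers the arrays were MOE430A, and the authors deposited a linear intensity for each of 22690 probe sets. How probes were summarised and background was corrected is not given in the sources used here. Trimmed means of the deposited intensity values lay between 99.59 and 99.97. The arrays had thus been scaled, and no scaling was added. Medians lay between 30.8 and 40.4, and the number of arrays limits the precision.

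Gene symbols came from the platform annotation, updated by gene identifier through RefSeq (GRCm38.p6): 20380 probe sets had 1 symbol, 691 several and 1555 none. Values were analysed as log2(signal + 6), which understates changes of dim transcripts. Left out were 64 controls and all probe sets averaging under 21.3 (40th percentile). Limma 3.58.1 in R 4.3.3 (lmFit, eBayes with a variance trend, two-sided, Benjamini-Hochberg over all 13579, threshold 0.05) compared the genotypes. The replicate numbers pair the arrays, since same-numbered arrays share a day per the file headers; their deviations from the genotype means correlated with 0.392, and the number entered as a block in an alternative fit. The fits were also run on simulated data with independent noise on each array and no day effect. That run does not test the block where arrays share a day. Differences between probe sets of 1 gene were fitted the same way over 4564 pairs, each against the gene's brightest.

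Lists used each gene's brightest probe set. Named were all STAT probe sets and a fixed set of pathway genes. Per list, up to 6 genes past the test and the 2 largest changes without overlap were added. Pim2, Myc, Id2, Mx1, Camp, Alas2 and Slc4a1 were chosen after seeing their values. The members and lists were chosen with earlier results of these data known. A further gene of this family is not reported here. Alternatives were quantile normalization, median centring, pseudocounts of 1 and 24, no filter or the 60th percentile, no trend, the block, each array left out and, for lists, probe sets averaged per gene. Plots used matplotlib 3.10.9 (Python 3.11.15).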

Additional observations from a re-analysis of the deposited data

How the results depend on the processing

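With 2 arrays per genotype, the spread is estimated mainly from all probe sets together, and a call near the threshold follows the settings. The replicate block, which is the hybridisation day, raised the count over all probe sets to 852, against 144 without it. It raised the STAT probe sets to 5, against 0, the genes of the pathway lists to 30, against 7, and the pairs of probe sets of 1 gene to 36, against 7. All 7 pathway genes were among the 30. Without the filter 56 probe sets and 3 pathway genes passed, and without the variance trend 47 and 2. Median centring left 4 pathway genes, quantile normalization gave 13 pairs, and the filter at the 60th percentile called 1 STAT probe set, Stat4. With 1 array left out, 105 to 356 probe sets, 0 to 1 STAT probe sets, 6 to 48 pairs and 4 to 14 pathway genes passed; the highest counts of probe sets, pairs and pathway genes came without wild type array 1, and the STAT call was Stat4 without wild type array 2. The cause was not tested.

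Of 577 values of single probe sets under an alternative, 516 kept direction and side of the threshold. Signs turned only for changes that passed in no setting. With 1 array left out, the ranges were -0.17 to 0.38 for Stat3 1424272_at, -0.074 to 0.25 for Stat5a 1450259_a_at, -0.037 to 0.501 for Stat5b 1422102_a_at and -0.34 to 0.14 for Stat6 1421708_a_at. Outside the STAT genes they were -0.085 to 0.115 for Cd4, -0.17 to 0.18 for Ifnar2, -0.004 to 0.15 for Jak1, -0.144 to 0.014 for Pim1, -0.55 to 0.19 for Socs1 and -0.27 to 0.12 for Tyk2. Median centring gave -0.002 for Stat5a 1450259_a_at, -0.076 for Cd4, -0.089 for Ifnar2 and -0.018 for Jak1, and quantile normalization gave -0.005 for Ifnar2. The log2 fold changes of Stat4 lay between 0.74 and 1.45 over all settings, and those of Stat3 1460700_at between 0.57 and 0.77.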
